A study of Mus musculus with 12 samples.

Results

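Sycp3, Lctl and Ifi27l2a are 3 genes with high transcript levels in the gonadal white adipose tissue (GWAT) of obese wild-type mice. They were taken by symbol from the 55281 genes counted, and had been selected on measured levels, which in WT HFD tissue lay well above those of the HoipA-KO CD group or of all other groups. Each symbol matched 1 gene, and all 3 genes passed the filter on low counts. Since the levels in WT HFD chose the genes, their differences between WT HFD and the other groups are given as a description, with no test. A test was kept for HoipA-KO HFD against WT CD, the pair that holds neither WT HFD nor HoipA-KO CD. It is not free of the choice, since a gene chosen as lower in all other groups is low in both of these.

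GWAT came from male mice with a floxed Hoip gene (Hoip fl/fl), which encodes the catalytic subunit of the complex that builds linear ubiquitin chains. Mice with the AdipoQ.Cre transgene, which deletes the gene in adipocytes only, are called HoipA-KO, and mice without the transgene are called WT, so that all 4 groups carried the floxed alleles. Both genotypes were fed from 6 weeks of age for 16 weeks a control diet (CD) or a high-fat diet (HFD) with 60% fat, and were 22 to 24 weeks old at sampling. The labels give 14% fat for the CD, and the methods of the study a slightly lower share. Each group had 3 libraries, and each library held the pooled RNA of 3 mice, so the spread given here is between pools and not between animals.

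SYCP3 is a structural protein of the lateral element of the synaptonemal complex, the scaffold that pairs chromosomes in meiosis, and most somatic tissues keep its gene silent. LCTL, also called klotho/lactase-phlorizin hydrolase-related protein or gamma-klotho, belongs to the klotho family of membrane proteins, whose best known members are co-receptors for endocrine fibroblast growth factors (FGFs). Ifi27l2a, also called ISG12, encodes a small hydrophobic protein and is induced by type I interferons in many cell types. It lies beside its relatives Ifi27 and Ifi27l2b.

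Libraries held 30513500 to 60540260 gene counts. Levels are given as CPM, counts scaled by TMM to an equal library total. In plain CPM, without the TMM factors, 3 counts, taken as the floor, come to 0.0496 to 0.0983. The fits used 11 libraries, because WT CD replicate 3, which the deposited comparisons leave out, held 168277 counts of the sperm protamine Prm2 against 0 to 7399 in the others. WT CD replicate 2 and HoipA-KO HFD replicate 1 carried transcripts of the epididymis, a tissue that adjoins this depot: 11 epididymal genes summed to 15428 and 1292 CPM there, and to 0.157 to 176 in the other 9 libraries of the fits. Rnf31, which encodes HOIP, had 17.8 to 22.5 CPM in all 11 libraries, so the genotype could not be read from a transcript of whole tissue. The 10 adipocyte markers, such as Adipoq and Plin1, were present in every library and summed to 31169.9 and 76169.9 CPM in WT CD, 37548 to 50379 in WT HFD, and 16676 to 16870.0 on CD and 13407 to 15767 on HFD in HoipA-KO tissue. The 9 macrophage markers summed to 315 and 377 CPM in WT CD, 1292 to 4487 in WT HFD, and 8226 to 10195 on CD and 4966 to 10053 on HFD in HoipA-KO tissue. In such bulk libraries fewer cells of a type and less RNA per cell cannot be told apart.

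Sycp3 and Lctl have a promoter sequence in the RefSeq table used here, and the 250 bases before each RefSeq start (GRCm38.p6, both on the plus strand) are shown because these genes stood highest in WT HFD by the widest margins over WT CD among the members. The Sycp3 stretch is chr10:88459337-88459586 and the Lctl stretch chr9:64116897-64117146. Capitals mark motifs that were chosen after the sequences were seen and searched on both strands, namely the E-box CACGTG and the E2F motif TCCCGC in Sycp3 and the nuclear receptor motif AGGTCA in Lctl.
Sycp3: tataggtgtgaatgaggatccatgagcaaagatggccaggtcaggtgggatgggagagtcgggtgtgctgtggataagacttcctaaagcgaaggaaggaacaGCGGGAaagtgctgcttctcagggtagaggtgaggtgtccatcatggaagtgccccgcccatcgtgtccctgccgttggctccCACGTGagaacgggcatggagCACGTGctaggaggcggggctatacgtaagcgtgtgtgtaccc
Lctl: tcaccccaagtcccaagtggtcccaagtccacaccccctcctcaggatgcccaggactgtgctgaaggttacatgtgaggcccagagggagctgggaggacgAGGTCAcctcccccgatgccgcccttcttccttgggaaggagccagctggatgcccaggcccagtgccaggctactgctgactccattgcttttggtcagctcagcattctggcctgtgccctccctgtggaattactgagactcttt
The E-box was found 2 times before Sycp3, where 6.02% of 32851 promoters of this length held at least 1 copy and 0.429% at least 2. E-boxes and E2F motifs are known from promoters of germ line genes that somatic cells repress. The E2F motif was found once before Sycp3, where 16.9% of promoters held it, and the nuclear receptor motif once before Lctl, where 14.0% held it. The latter was also found once before Sycp3 and is not in capitals there, and the Sycp3 stretch held 12 CpG sites against 3 in Lctl and a median of 6.

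**Figure D1:**
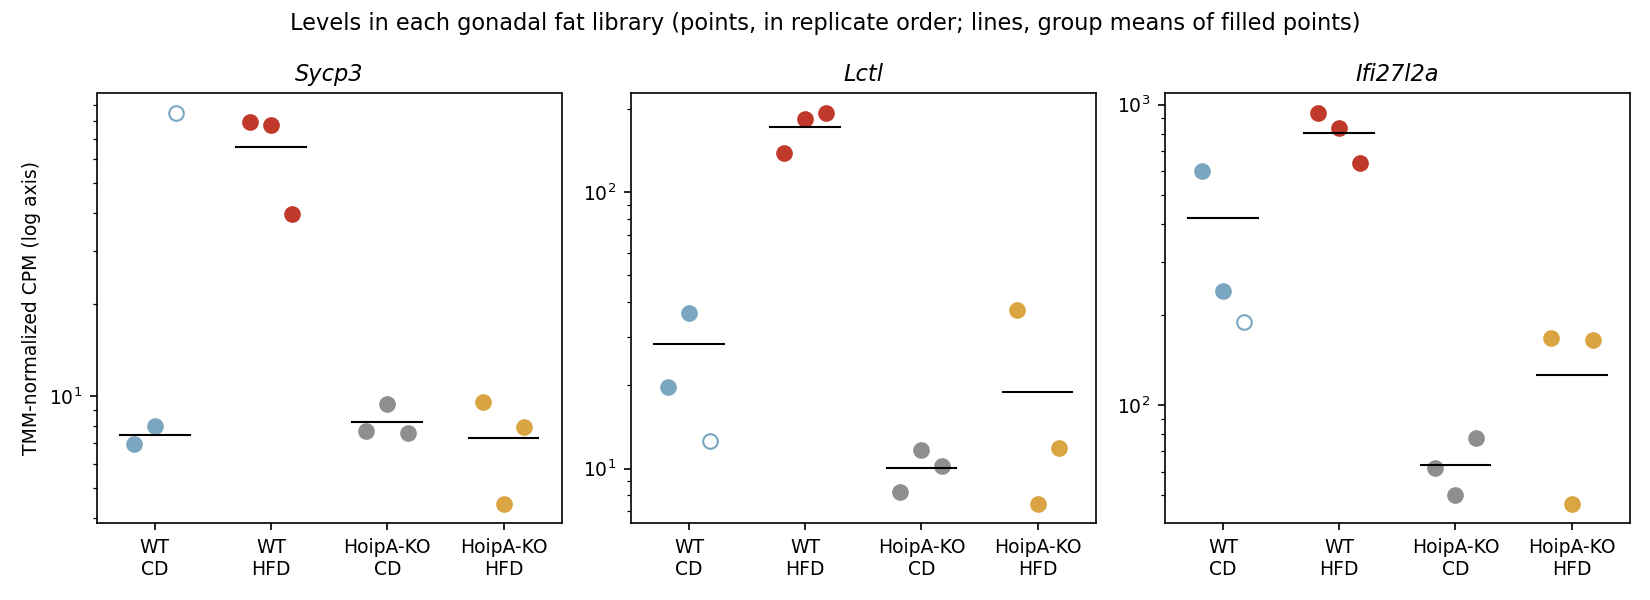
TMM-normalized CPM (log axis) of Sycp3, Lctl and Ifi27l2a in each library, by group, with filled points for the 11 libraries of the fits, lines for their group means and an open point for WT CD replicate 3, normalized over 12 libraries. The 3 WT HFD points lie above every other filled point for each gene, and the open Sycp3 point lies at 84.8 CPM.

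Sycp3 was 8.75 times higher in WT HFD than in WT CD, 7.96 times higher than in HoipA-KO CD and 8.96 times higher than in HoipA-KO HFD. The gene lies on the plus strand of chromosome 10 at 88459569 to 88473236 (GRCm38, GENCODE M21) and has 8 exon blocks. Its level in WT HFD was 79.5, 77.4 and 39.7 CPM in replicates 1, 2 and 3. In WT CD it was 6.98 and 7.98 CPM in replicates 1 and 2. In the HoipA-KO groups it was 7.70, 9.41 and 7.56 CPM on CD and 9.55, 4.44 and 7.91 CPM on HFD. The WT HFD libraries lay above the other 8, as they did for 3.38% of all genes tested, and the other 3 groups overlapped with each other. Log2 differences of WT HFD were 3.13 (standard error 0.35) against WT CD, 2.99 (standard error 0.31) against HoipA-KO CD and 3.16 (standard error 0.31) against HoipA-KO HFD. HoipA-KO HFD did not differ detectably from WT CD, with a log2 difference of -0.034 (95% interval -0.82 to 0.75, adjusted p = 0.947, edgeR's quasi-likelihood test). WT CD replicate 3, whose levels here are normalized over 12 libraries, had 84.8 CPM, and with it the log2 difference of WT HFD against WT CD was 1.00 instead, and that of HoipA-KO HFD against WT CD was -2.18 (adjusted p = 0.0674 by edgeR's test).

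Of the other meiotic genes listed here, none of the 18 tested was called higher in WT HFD in all 3 comparisons. The lists had 34 such genes in the table, 14 of the synaptonemal complex and the cohesin axis and 20 of meiotic recombination and entry. They do not cover every gene that acts in meiosis. Rad50, which is not on them, was called higher in all 3, by 0.75 against WT CD, 0.94 against HoipA-KO CD and 0.98 against HoipA-KO HFD on the log2 scale. Against WT CD, where 9.35% of all 18427 genes were called higher and 5.47% lower, edgeR's quasi-likelihood test called none of the 18 higher, with 0 higher and 4 lower at an unadjusted p under 0.05 and 0 higher and 1 lower by DESeq2. Their median log2 difference was -0.42, against 0.0036 over all genes. Against each HoipA-KO group 2 genes were higher, Sycp2 and Prdm9. Of all genes 9.07% were called higher and 6.78% lower against HoipA-KO CD, and 7.62% higher and 4.20% lower against HoipA-KO HFD. The median of the 18 genes was 0.21 against HoipA-KO CD and -0.29 against HoipA-KO HFD, with -0.040 and -0.058 over all genes. Sycp2, the other main protein of the lateral element, had 1.44, 0.564 and 0.577 CPM in WT HFD, 1.43 and 1.23 in WT CD and 0.0734 to 0.324 in the HoipA-KO groups. Its log2 difference of WT HFD against HoipA-KO CD was 2.14 (standard error 0.56, adjusted p = 0.0361). Prdm9, which places the sites of meiotic recombination, was higher by 1.23 (standard error 0.32, adjusted p = 0.0328) in the same comparison and had a difference of -0.092 against WT CD. Of 15 other germ line genes that somatic cells silence, 6 were tested, and none was higher in WT HFD in any of the 3 comparisons by edgeR's test, with 0, 2 and 0 at an unadjusted p under 0.05 and 0, 1 and 0 by DESeq2. Against WT CD 3 of the 6 were lower, Mael, Piwil2 and Tuba3a, named after their values were seen. WT CD replicate 2, in the comparison group of these calls, held more RNA of the testis, with 26.5 CPM of the 14 axis genes against 4.51 in replicate 1, and its part in the calls was not tested beyond leaving it out, which left 1 of the meiotic genes called higher than in WT CD. These counts of meiotic genes rest on few libraries. Leaving out WT HFD replicate 1, WT HFD replicate 2, HoipA-KO CD replicate 1 or HoipA-KO CD replicate 2 left 0 of the 2 calls against HoipA-KO CD, and leaving out HoipA-KO CD replicate 3 or HoipA-KO HFD replicate 3 left 1. Against HoipA-KO HFD 0 were left without WT HFD replicate 1, WT HFD replicate 2, HoipA-KO CD replicate 1, HoipA-KO HFD replicate 2 or HoipA-KO HFD replicate 3, and 1 without HoipA-KO HFD replicate 1.

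**Figure D2:**
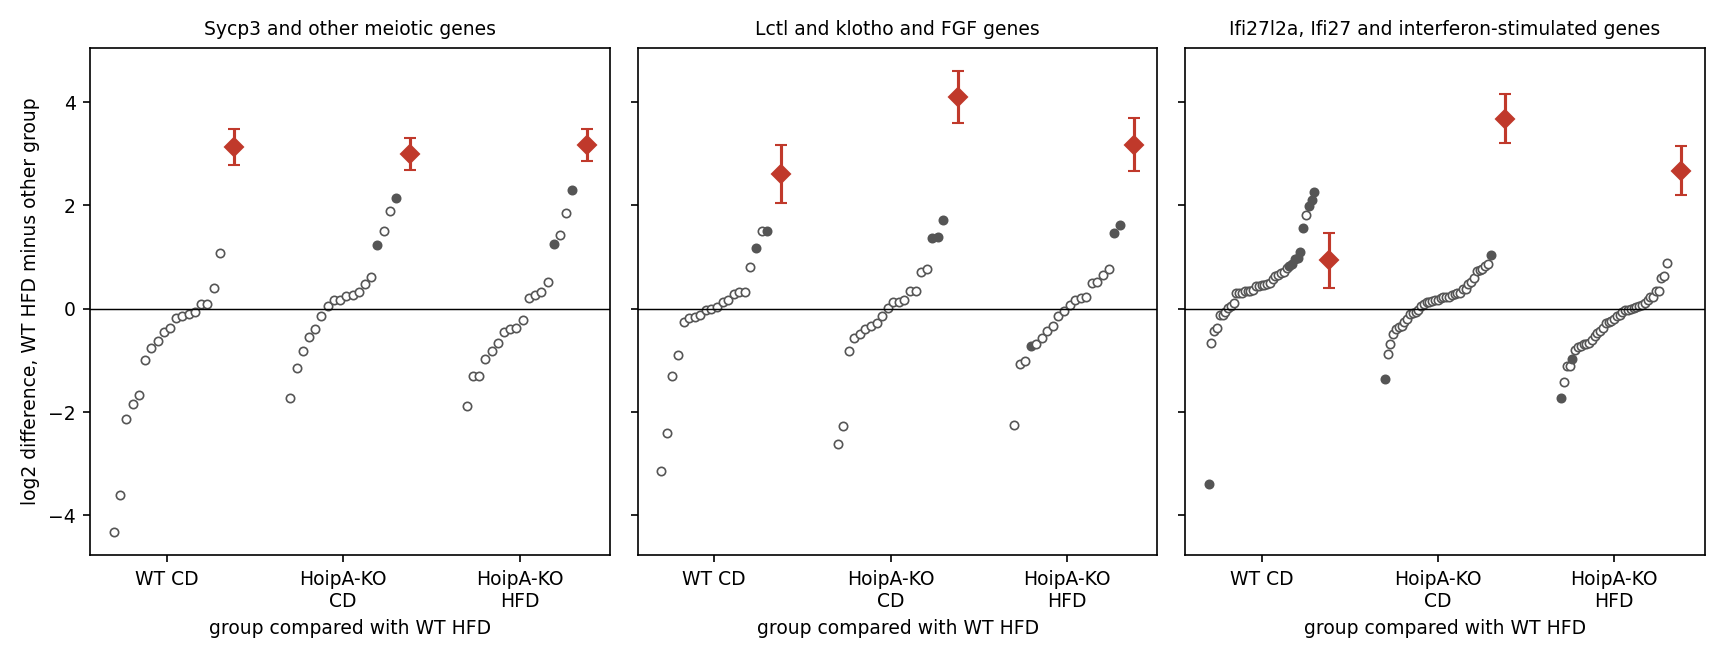
Log2 differences of WT HFD against WT CD, HoipA-KO CD and HoipA-KO HFD (vertical axis) for each member (red diamonds, with the standard error) and for the tested genes of its list, with Ifi27 added for Ifi27l2a (circles in rising order, filled past an adjusted p of 0.05). Sycp3 and Lctl lie above every circle of their lists in all 3 comparisons, and Ifi27l2a does so against both HoipA-KO groups but not against WT CD.

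In raw counts, WT HFD libraries held 1926 to 4112 reads of Sycp3 but only 2 to 4 of Sycp1, which forms the transverse filaments of the complex, 0 to 2 of Hormad1 and 5 of the meiotic recombinase Dmc1 in each library. The ratio of Sycp3 counts to the summed counts of the 14 other axis genes was 13.4, 16.0 and 7.41 in WT HFD. It was 1.47 and 0.291 in WT CD and 0.571 to 1.24 in the HoipA-KO libraries. WT CD replicate 3 was the reverse of WT HFD, with a ratio of 0.0756, 4572 Sycp3 counts, 6968 of Sycp1 and 9335 of Sycp2. The high Sycp3 of this library thus came with high summed counts of the other axis genes, and that of WT HFD did not. Of these axis genes, Sycp2 was called higher in WT HFD than in each HoipA-KO group. Spermatid genes, a list of 18, summed to 49.5 to 67.4 CPM in WT HFD, 85.3 and 647 in WT CD and 43.3 to 57.0 in the HoipA-KO libraries.

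**Figure D3:**
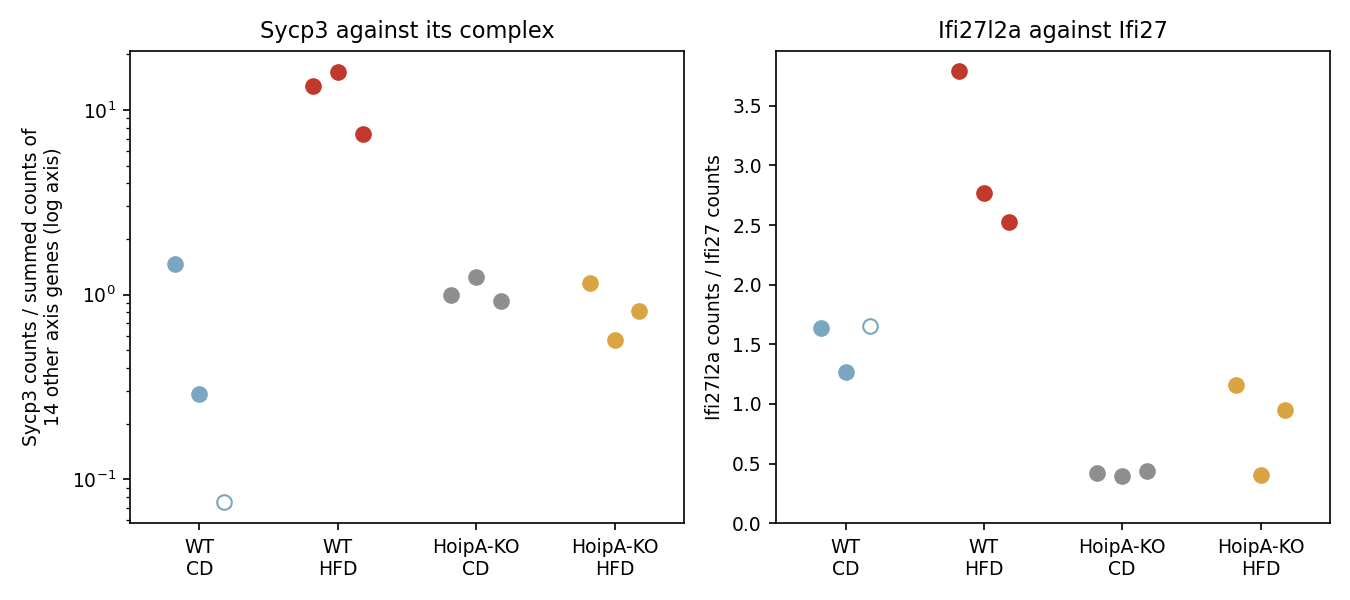
Left, Sycp3 counts divided by the summed counts of 14 other axis genes (log axis), and right, Ifi27l2a counts divided by Ifi27 counts, with 1 point per library and an open point for WT CD replicate 3. WT HFD lies highest in both, at 7.41 to 16.0 and 2.53 to 3.79, and the open point is lowest on the left, at 0.0756.

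Sycp3 lies wholly inside Chpt1, which is on the opposite strand at 88452745 to 88504073 and encodes an enzyme of phosphatidylcholine synthesis, and 660 of the 1264 exonic bases of Sycp3 are also exonic in Chpt1. The library kit kept the strand, but the strand setting of the counting is not given in the sources used here, so reads of the 2 genes may have been shared out uncertainly. Chpt1 had 1102, 1130 and 783 CPM in WT HFD and 1482 and 748 in WT CD, with a log2 difference of -0.15 (standard error 0.31, adjusted p = 0.779). Against HoipA-KO CD it was higher in WT HFD by 2.28 (standard error 0.28, adjusted p = 0.0095). Per 1000 Chpt1 counts, Sycp3 had 72.2, 68.5 and 50.7 counts in WT HFD, 4.71 and 10.7 in WT CD, and 28.7 to 44.9 in the HoipA-KO libraries. Set against Chpt1, Sycp3 therefore stayed highest in WT HFD among the 11 libraries of the fits, but by a narrower margin over the HoipA-KO groups. WT CD replicate 3, which was left out, had 135 Sycp3 counts per 1000 Chpt1 counts.

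Lctl was 6.10 times higher in WT HFD than in WT CD, 17.1 times higher than in HoipA-KO CD and 9.04 times higher than in HoipA-KO HFD. It lies on the plus strand of chromosome 9 at 64117147 to 64138118 and has 15 exon blocks. Its level in WT HFD was 138, 184 and 193 CPM in replicates 1, 2 and 3. In WT CD it was 19.7 and 36.6 CPM, and 12.6 in the replicate 3 left out. In HoipA-KO CD it was 8.25, 11.7 and 10.2 CPM, and in HoipA-KO HFD 37.6, 7.47 and 11.9 CPM. The WT HFD libraries lay above all others, WT CD lay above HoipA-KO CD without overlap, and HoipA-KO HFD reached from the lowest level of all to above WT CD. Of all genes tested 3.38% had WT HFD above the other 8 libraries of the fits. The share with WT CD above HoipA-KO CD was not counted. Log2 differences of WT HFD were 2.61 (standard error 0.56) against WT CD, 4.10 (standard error 0.51) against HoipA-KO CD and 3.18 (standard error 0.51) against HoipA-KO HFD.

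HoipA-KO HFD replicate 1, where Lctl was high, and WT CD replicate 2, the higher of its pair, are the libraries with the most epididymal RNA, whereas in WT HFD the 11 epididymal genes summed to 0.268 to 13.9 CPM. The part of epididymal RNA in the spread of Lctl was not tested. Between HoipA-KO HFD and WT CD the log2 difference of Lctl was -0.57 (standard error 0.57, 95% interval -1.84 to 0.70, adjusted p = 0.459, edgeR's quasi-likelihood test). Without HoipA-KO HFD replicate 1 it was -1.64 with an adjusted p of 0.00918 by the same test of edgeR, and without both of these libraries -1.05 with an adjusted p of 0.0357. The difference between WT HFD and HoipA-KO HFD was 4.14 on the log2 scale without HoipA-KO HFD replicate 1. Adjusted p-values of the tested pair ranged from 0.00918 to 0.962 over all alternatives.

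Other genes of the klotho and FGF axis had smaller differences upwards than Lctl. Klb, the co-receptor for FGF21 on adipocytes, had 34.0, 33.6 and 26.7 CPM in WT HFD, 38.9 and 24.3 in WT CD and 9.36 to 13.0 in the HoipA-KO libraries. It was higher in WT HFD than in HoipA-KO CD by 1.38 (standard error 0.18, adjusted p = 0.00952) and than in HoipA-KO HFD by 1.61 (standard error 0.18, adjusted p = 0.00739), with -0.0069 (adjusted p = 0.986) against WT CD. Kl, the co-receptor for FGF23, had group means of 0.144 to 1.16 CPM. Gba2, a glucosylceramidase outside the klotho family that the klotho list here included, had group means of 15.3 to 19.6 CPM. Neither Kl nor Gba2 passed the test in any of the 3 comparisons with WT HFD. Lct, the intestinal lactase, did not pass the filter on low counts. The lists of klotho, FGF receptor, endocrine FGF and FGF response genes held 20 tested genes, Gba2 included. Of these, 2 were higher against WT CD, 3 against HoipA-KO CD and 2 against HoipA-KO HFD, where 1 was lower. Over all genes the shares called higher were 9.35%, 9.07% and 7.62% in the same order, so the counts of 2, 3 and 2 in 20 were near them. The median log2 difference of these genes was 0.016, 0.075 and 0.012 in the same order. The genes past the test, of which Fgf21 and Etv5 were named after their values were seen, were Spred1 and Etv5 against WT CD, Klb, Fgfrl1 and Fgf21 against HoipA-KO CD, and Klb and Fgfrl1 against HoipA-KO HFD, where Etv5 was lower. Spred1, an inhibitor of the signal from FGF receptors to MAP kinases, had 84.5 CPM on average in WT HFD, 29.6 in WT CD, and 119 and 114 in the HoipA-KO groups on CD and HFD. The 2 calls against WT CD became 5 without WT CD replicate 1, 0 without WT CD replicate 2 and 1 without WT HFD replicate 2 or WT HFD replicate 3. The 3 against HoipA-KO CD became 1 without WT HFD replicate 1 or 2 or without HoipA-KO CD replicate 1 or 2, and the 2 against HoipA-KO HFD became 1 without WT HFD replicate 1 or 2 or without HoipA-KO HFD replicate 2 or 3.

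Zwilch, a mitotic checkpoint gene on the opposite strand, overlaps the last 975 bases of Lctl, 254 of them exonic in both. It had 4.59 to 7.13 CPM in WT HFD, 2.59 and 3.25 in WT CD and 6.06 to 11.1 in the HoipA-KO libraries, so its order differed from that of Lctl. None of the 3 comparisons with WT HFD passed the test for Zwilch (adjusted p = 0.0622, 0.353 and 0.313).

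Ifi27l2a was 12.8 times higher in WT HFD than in HoipA-KO CD and 1.91 times higher than in WT CD. It lies on the minus strand of chromosome 12 at 103442167 to 103443680 and has 4 exon blocks. Its level in WT HFD was 938, 837 and 637 CPM in replicates 1, 2 and 3. In WT CD it was 602 and 239 CPM, and 189 in the replicate 3 left out. In HoipA-KO CD it was 61.6, 50.0 and 77.4 CPM, and in HoipA-KO HFD 167, 46.9 and 165 CPM. WT CD replicate 1 came close to the lowest WT HFD library, so WT HFD lay only narrowly above WT CD for this gene. Its distance from HoipA-KO tissue was favoured by the choice of the genes and is no support for the label. Every WT library lay above every HoipA-KO library, while the HoipA-KO groups overlapped with each other. The share of all genes with such a separation of the genotypes was not counted, so it is not taken as a trait of this gene. Log2 differences of WT HFD were 0.94 (standard error 0.53) against WT CD, 3.67 (standard error 0.47) against HoipA-KO CD and 2.67 (standard error 0.47) against HoipA-KO HFD. Against WT CD the value was 1.76 without WT CD replicate 1 and 0.42 without WT CD replicate 2.

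Ifi27l2a was lower in HoipA-KO HFD than in WT CD, as were 16.9% of all genes, and 34.7% were called in either direction. The log2 difference was -1.74 (standard error 0.53, 95% interval -2.92 to -0.55, adjusted p = 0.0283, edgeR's quasi-likelihood test). All 3 HoipA-KO HFD libraries lay below both WT CD libraries, an order whose share over all genes was not counted. Adjusted p-values ranged from 0.00291 to 0.247 over the alternatives. The call was lost without WT CD replicate 1, with a log2 difference of -0.92 and an adjusted p of 0.247, and over all 12 libraries, with -1.46 and an adjusted p of 0.0586. Per 1000 counts of adipocyte markers the direction turned, to 0.15 on the log2 scale. Adipocyte markers were lower in the same comparison, 8 of 10 past the test, all but Lpl and Lep.

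Of 38 interferon-stimulated genes tested, 9 were higher and 1, Isg20, lower in WT HFD than in WT CD, with a median log2 difference of 0.46, where 9.35% of all genes were called higher and 5.47% lower. Against HoipA-KO CD, where 9.07% of all genes were higher and 6.78% lower, 1 was higher, Ifit3b, and 1 lower, Oasl1, with a median of 0.17. Against HoipA-KO HFD, where 7.62% of all genes were higher and 4.20% lower, edgeR called none higher, with 1 at an unadjusted p under 0.05 and 0 by DESeq2, and 2 were lower, Oasl1 and Oasl2, with a median of -0.22. In HoipA-KO HFD against WT CD, where Ifi27l2a was lower, 16 of the 38 were higher and 1, Isg20, was lower, where 17.9% of all genes were called higher. Oasl1, a 2′-5′ oligoadenylate synthetase-like gene, was named like Oasl2, Isg20 and Ifit3b after its values were seen. It had 2.79 to 8.49 CPM in WT HFD, 1.02 and 1.35 in WT CD and 10.6 to 22.1 in the HoipA-KO libraries. This order was the reverse of Ifi27l2a between the genotypes. Among the most abundant genes of the list, Lgals3bp, which encodes a secreted glycoprotein, was higher in WT HFD than in WT CD by 0.99 (adjusted p = 0.016) and Ifitm3, which blocks virus entry, was higher in HoipA-KO HFD than in WT CD by 0.98 (adjusted p = 0.0079). The count of 9 against WT CD was 0 without WT CD replicate 2, 3 without WT HFD replicate 2 and 1 without WT HFD replicate 3. The count of 1 against HoipA-KO CD was 3 without WT CD replicate 1 or 2, 2 without HoipA-KO HFD replicate 2 and 0 without any 1 of the 3 WT HFD or 3 HoipA-KO CD libraries.

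Of 22 genes that interferon gamma induces, 4 were higher in WT HFD than in WT CD (Gbp6, Ciita, Irf8 and Psmb8), 3 were higher than in HoipA-KO CD (Gbp6, Gbp7 and Cxcl9) and 2 were lower than in HoipA-KO HFD (Irgm1 and Ifi47). These counts stand beside 9.35% and 9.07% of all genes called higher and 4.20% called lower. Irf8, a myeloid transcription factor of this list, had means of 52.9 CPM in WT HFD, 11.1 in WT CD, and 82.4 and 85.2 in the HoipA-KO groups on CD and HFD. Macrophage markers were higher in WT HFD than in WT CD for 9 of 9 genes and lower than in each HoipA-KO group for 4 of 9, with Cd68, Lgals3 and Trem2 in both, Itgax on CD and Fcgr1 on HFD, beside 9.35% of all genes higher than in WT CD and 6.78% and 4.20% lower than in the HoipA-KO groups. The 2 libraries with the highest macrophage sums, HoipA-KO CD replicate 2 and HoipA-KO HFD replicate 2, had the lowest Ifi27l2a, 50.0 and 46.9 CPM. The part of cell composition in these levels was not tested.

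Ifi27, which lies 1928 bases from Ifi27l2a on the opposite strand and belongs to the same family, had 247, 302 and 252 CPM in WT HFD, 368 and 189 in WT CD, and 145, 126 and 178 on CD and 144, 117 and 174 on HFD in HoipA-KO tissue. Its log2 difference of WT HFD was -0.059 (adjusted p = 0.91) against WT CD, 0.84 (adjusted p = 0.055) against HoipA-KO CD and 0.89 (adjusted p = 0.0538) against HoipA-KO HFD. Ifi27 was lower in HoipA-KO HFD than in WT CD, with a log2 difference of -0.95 (standard error 0.29, adjusted p = 0.0278). Ifi27l2b, the nearest relative by name, had 0 to 8 counts per library. The ratio of Ifi27l2a counts to Ifi27 counts was 3.79, 2.77 and 2.53 in WT HFD, 1.64 and 1.27 in WT CD, and 0.424, 0.398 and 0.434 on CD and 1.16, 0.402 and 0.950 on HFD in HoipA-KO tissue. The ratios of WT HFD lay above all others and those of HoipA-KO CD below all others except HoipA-KO HFD replicate 2, which lay among them. Salmon may have shared out reads between family members, whose sequences were not compared here. This was not tested, and the split between them is uncertain to that extent.

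All 3 genes were also set against the 10 adipocyte markers, a denominator chosen after the data were seen, because these markers were lower in HoipA-KO tissue. Of the 10, 9 were higher in WT HFD than in each HoipA-KO group, beside 9.07% and 7.62% of all genes. Lpl, the most abundant of the 10, was not called against either HoipA-KO group. Its weight in the summed counts was not tested. None was called higher than in WT CD by edgeR, with 1 at an unadjusted p under 0.05 and 1 by DESeq2. Per 1000 counts of these markers Sycp3 had 1.58, 1.57 and 1.06 counts in WT HFD, 0.0917 and 0.256 in WT CD and 0.331 to 0.681 in the HoipA-KO libraries. Lctl had 2.74, 3.75 and 5.14 counts in WT HFD, 0.259 and 1.17 in WT CD, and 0.489 to 0.699 on CD and 0.557 to 2.68 on HFD in HoipA-KO tissue. Ifi27l2a had 18.6, 17.0 and 17.0 counts in WT HFD, 7.90 and 7.67 in WT CD, and 3.00 to 4.59 on CD and 11.9, 3.50 and 10.5 on HFD in HoipA-KO tissue. Among the 11 libraries of the fits WT HFD stayed highest for each gene on this scale, and WT CD was lowest for Sycp3. WT CD replicate 3, which was left out, had 3.66 Sycp3 counts per 1000 marker counts, above WT HFD. The spread of Ifi27l2a between the WT CD pools, 602 against 239 CPM, shrank to 7.90 against 7.67 per 1000 marker counts, and WT CD replicate 3 had 8.14. On this scale the log2 ratios of WT HFD to HoipA-KO CD and HoipA-KO HFD were 1.52 and 1.47 for Sycp3, 2.70 and 1.54 for Lctl, and 2.23 and 1.02 for Ifi27l2a, each smaller than in CPM.

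**Figure D4:**
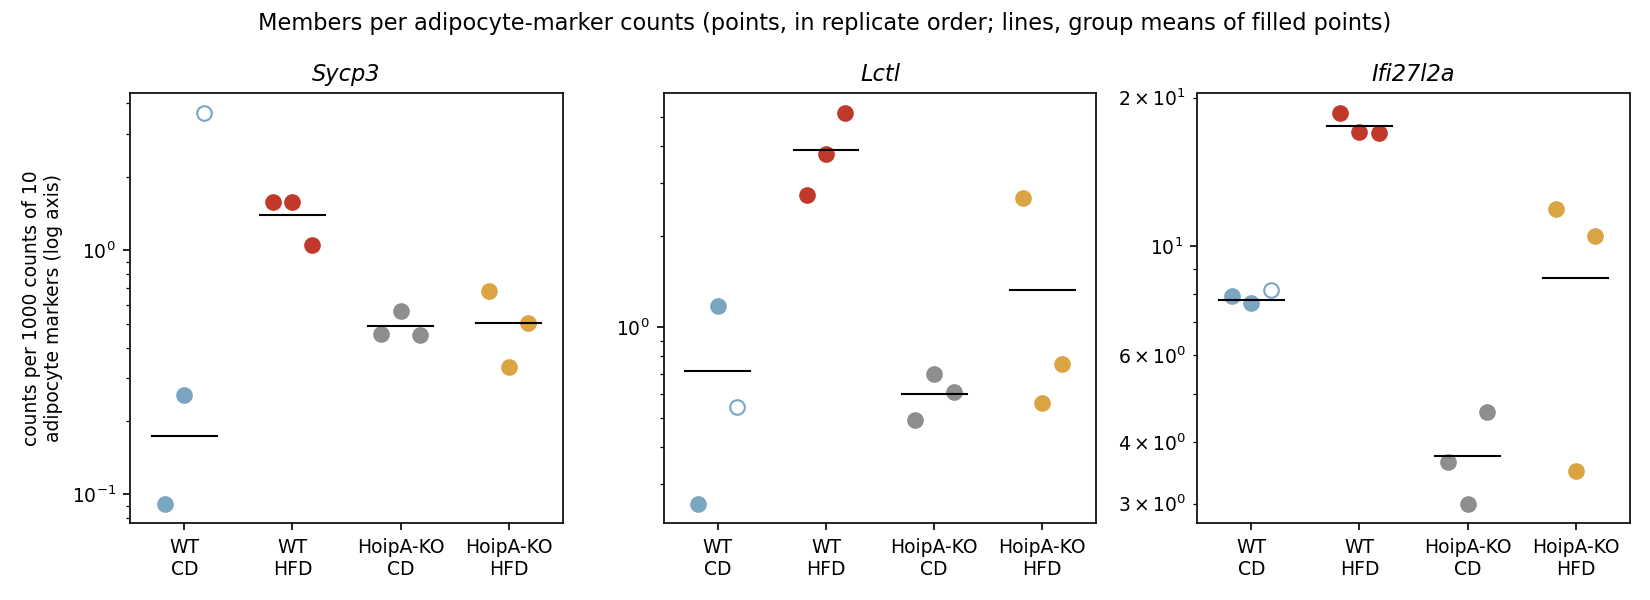
Counts of Sycp3, Lctl and Ifi27l2a per 1000 summed counts of 10 adipocyte markers (log axis) in each library, with lines for the group means of filled points and an open point for WT CD replicate 3. Among filled points WT HFD lies highest for each gene, at 1.06 to 1.58, 2.74 to 5.14 and 17.0 to 18.6.

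Among all genes tested, 84 were higher in WT HFD than in each of the other 3 groups, which is 0.456% of the genes tested, and 623 genes, or 3.38%, had their 3 WT HFD libraries above the other 8. Sycp3, Lctl and Ifi27l2a are among the 623, which their choice by WT HFD levels favoured.

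The genes whose levels were most like each member were found by Pearson's r of log2(CPM + 1) over the 11 libraries among 14320 genes with a mean of at least 1 CPM. For Sycp3 they were Hmgcs1, an enzyme of sterol synthesis (r = 0.964), Fgf13, an intracellular FGF homologous factor (r = 0.964), Angptl1, Mtarc1 and Nos1ap, with r from 0.956 upwards. Hmgcs1 had mean levels of 349.7 CPM in WT HFD, 108 in WT CD, and 132 and 127 in the HoipA-KO groups on CD and HFD. For Lctl they were Orm2, an acute-phase protein (r = 0.958), Pde7a, Fgf13, Lamb3 and Insig1, a regulator of sterol synthesis, with r from 0.945 upwards. Fgf13 was on both lists and had means of 97.5 CPM in WT HFD, 15.4 in WT CD, and 11.6 and 17.0 in the HoipA-KO groups on CD and HFD. For Ifi27l2a they were Pcdh1, a protocadherin (r = 0.991), Rflnb, Trp53i11, Ctcflos and Magi1, with r from 0.986 upwards and none of them higher in WT HFD than in all 3 groups. Between the members r was 0.909 for Sycp3 and Lctl, 0.772 for Sycp3 and Ifi27l2a and 0.869 for Lctl and Ifi27l2a. These values are descriptions over libraries that fall into 4 groups and share the same totals.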

How the data were processed

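Bulk RNA of GWAT was sequenced by the authors from a stranded poly(A) library kit, trimmed with Trim Galore 0.6.7, aligned with STAR 2.7.10a and quantified with Salmon 1.5.2. They deposited estimated counts per gene without normalization, for all genes and for protein-coding genes. The labels give GRCm38 and the methods a human assembly. As 51948 of the 55281 gene identifiers are in GENCODE M21 (GRCm38), positions were taken from it. The authors also deposited DESeq2 fold changes and p-values, which are not used here.

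After rounding, low counts were removed with filterByExpr, and 1 model of 4 groups with TMM factors was fitted over 11 libraries (edgeR 4.0.16, limma 3.58.1, R 4.3.3), with Benjamini-Hochberg adjustment over 18427 genes at 0.05. Where labels give replicates, these are pools of mice, so p-values measure the spread between pools. Log2 differences use a prior count of 0.125. DESeq2 1.42.0 was an alternative, beside other normalization, filters, tables, a replicate block and leaving out libraries. The scripts were tested on simulated data. Named genes are the members, the genes of the klotho and IFI27 lists, and up to 4 most abundant genes of each other list. The 5 genes most like each member are also named, with exceptions said where they stand. The members and lists were chosen with earlier results of these data known.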

Additional observations from a re-analysis of the deposited data

Results flagged for a closer look

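Sycp3 had 84.8 CPM in WT CD replicate 3, which the comparisons leave out, against 7.16 and 8.21 in the other WT CD pools over the same 12 libraries. It came with 60483 counts of the 14 other axis genes.

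For genes of the lists the response to HFD in HoipA-KO minus that in WT was tested as an interaction, and 7 of 84 named list genes passed it, beside 721 of all 18427 genes, or 3.91% (edgeR's quasi-likelihood test, Benjamini-Hochberg adjustment). On the log2 scale the difference was -3.27 for Lgals3, -4.29 for Cd68, -2.52 for Csf1r and -4.00 for Adgre1, all macrophage markers, -2.21 for Irf8 and -3.12 for Otop1, a proton channel of brown fat. Each of these 6 genes was higher in WT HFD than in WT CD. Crisp1, an epididymal gene, had 27.6 on this scale and was present mainly in WT CD replicate 2 and HoipA-KO HFD replicate 1. No interaction was tested for Sycp3, Lctl and Ifi27l2a, since their levels in WT HFD chose them.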

How the results depend on the processing

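Of 487 values recomputed under alternatives, 380 were classed as unchanged, which allowed for small shifts. A further 102 moved, 2 became weaker, 2 became stronger and 1 was classed as turned in direction. For HoipA-KO HFD against WT CD a change of sign with no test passed was not classed as turned. With DESeq2's size factors in place of TMM 2 interferon-stimulated genes were higher in WT HFD than in HoipA-KO CD, and with the counts of protein-coding genes alone there were 3. Without a filter on low counts there were 0 of these, and the meiotic genes higher in WT HFD were 1 against HoipA-KO CD and 0 against HoipA-KO HFD. With at least 10 counts in every library there were 3 interferon-stimulated genes, and 1 meiotic gene against each HoipA-KO group. Over all 12 libraries HoipA-KO HFD against WT CD was -2.18 for Sycp3 (adjusted p = 0.0674 by edgeR) and -1.46 for Ifi27l2a (adjusted p = 0.0586 by edgeR), 999 genes were called against HoipA-KO CD and 503 against HoipA-KO HFD, with 0 meiotic genes higher against each, 0 interferon-stimulated genes against HoipA-KO CD and 1 klotho or FGF gene in each of the 3 comparisons. As reported, 2731 genes were called against WT CD, 2920 against HoipA-KO CD and 2179 against HoipA-KO HFD. DESeq2's Wald test called 4552, 4958 and 4457, and 5 interferon-stimulated genes against HoipA-KO CD. The cause of these shifts was not tested.

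Replicate numbers are shared by the groups, but deviations of same-numbered pools from their group means correlated with r from -0.38 to 0.51. The 3 pairs of HoipA-KO CD and HoipA-KO HFD had 0.15, 0.51 and 0.28, whereas in each comparison made in the report at least 1 pair had under 0.1, and its samples were not taken as paired. With the replicate number as a block 1502 genes were called against WT CD, with 3 interferon-stimulated and 1 klotho or FGF gene higher, and 2 interferon-stimulated genes were higher against HoipA-KO CD. For HoipA-KO HFD against WT CD the block gave 0.064 for Sycp3, -0.59 for Lctl and -1.84 for Ifi27l2a.

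Alternatives chosen after seeing the data left out the 2 libraries highest in epididymal genes or divided by adipocyte markers. The former gave -1.05 for Lctl in HoipA-KO HFD against WT CD, 856, 4577 and 3779 genes called in the 3 comparisons, 0, 4 and 1 interferon-stimulated genes higher, and 0 klotho or FGF genes against WT CD. The latter gave 1.54 for Sycp3, 0.89 for Lctl and 0.15 for Ifi27l2a in HoipA-KO HFD against WT CD. All of these turned in sign from the reported -0.034, -0.57 and -1.74, of which only the last had passed the test.

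Leaving out 1 library at a time gave -0.37 to 0.22 for Sycp3, -1.64 to -0.052 for Lctl and -2.25 to -0.92 for Ifi27l2a in HoipA-KO HFD against WT CD. Genes called ranged from 1045 (without WT HFD replicate 3) to 5985 (without WT CD replicate 1) against WT CD, from 493 to 4416 against HoipA-KO CD and from 279 to 3797 against HoipA-KO HFD, the lowest of both without WT HFD replicate 1 and the highest without WT CD replicate 2, and from 4757 to 7190 for HoipA-KO HFD against WT CD. In the order WT CD, HoipA-KO CD and HoipA-KO HFD, genes higher in WT HFD ranged from 0 to 1, 0 to 3 and 0 to 2 for meiotic genes, from 0 to 12, 0 to 3 and 0 to 1 for interferon-stimulated genes, and from 0 to 5, 1 to 3 and 1 to 2 for klotho and FGF genes. The number of genes higher than in all 3 groups ranged from 11 without WT HFD replicate 2 to 449 without WT CD replicate 1. A pair of WT CD pools limits every comparison with that group, and low meiotic counts limit what could be detected.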

Other observations

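Of the 84 genes that were higher in WT HFD than in all 3 other groups, the following were named after their values were seen. Mest, an imprinted gene, had 781 CPM on average in WT HFD, 99.8 in WT CD, and 87.5 and 117 in the HoipA-KO groups on CD and HFD. Peg3, another imprinted gene, had means of 134 CPM in WT HFD, 17.4 in WT CD, and 18.0 and 21.2 in the HoipA-KO groups on CD and HFD. Trdn, which encodes triadin of the calcium release complex of muscle, had 18.4 CPM in WT HFD, 0.321 in WT CD, and 1.67 and 2.57 in the HoipA-KO groups on CD and HFD. Gnal, the olfactory G protein alpha subunit, had 19.7 CPM in WT HFD, 2.10 in WT CD, and 2.93 and 1.85 in the HoipA-KO groups on CD and HFD.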
